A study of Mus musculus with 32 samples.

Results

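Cathepsins are proteases that digest protein inside lysosomes, and cystatin C is a secreted inhibitor of those that use an active-site cysteine. Expression of 9 cathepsin genes (Ctsa, Ctsb, Ctsc, Ctsd, Ctsh, Ctsl, Ctsk, Ctss and Ctsz) and of Cst3, which encodes cystatin C, was examined in spinal microglia and whole spinal cord of SOD1G93A mice, a model of amyotrophic lateral sclerosis. These 10 genes were taken by symbol from the 74021 genes of the count tables, 74016 in the table of microglia by age, and every one was found in all 3 tables. Ctsb, Ctsc, Ctsh, Ctsl, Ctsk, Ctss and Ctsz encode cysteine proteases, Ctsd an aspartyl protease, and Ctsa a serine carboxypeptidase that is also called protective protein.

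The series held 32 RNA-seq libraries in 3 sets. In the first, CD11b+/CD45int microglia were sorted from spinal cord into LAG-3-low (n = 5) and LAG-3-high (n = 5) fractions of SOD1G93A mice at postnatal day (P) 140, beside microglia of non-transgenic wild-type (WT) mice (n = 4). LAG-3 is an inhibitory checkpoint receptor. The second set held microglia of SOD1G93A mice with intact Lag3 (LAG-3+/+) or lacking it (LAG-3-/-) at P120 and P140, with 3 libraries in each of the 4 groups, and the third held whole spinal cord of both genotypes at P140, with 3 libraries each. All mice of the second and the third set carried the human SOD1 transgene with the G93A mutation, so neither set had a non-transgenic control, and the Lag3 deletion affected every cell of the animal. Totals were 9403286 to 22850356 counts per library in the first set, 23981240 to 49512341 in the second and 19429873 to 26994340 in the third.

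In microglia, cathepsins degrade material taken up by phagocytosis and delivered by autophagy, and they are made as inactive precursors that mature in acidic compartments. Ctss is especially active in antigen-presenting cells, where it processes the invariant chain. Microglia are a main source of Ctsd, Ctss and Cst3 transcripts in healthy nervous tissue, and lysosomal genes are a well-known part of the response of microglia to neurodegeneration. Lysosomal genes share a control by TFEB, TFE3 and MITF, which bind E-box motifs.

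The sorted libraries were not equally pure. Summed over 9 microglial marker genes, all detected in every library, WT libraries held 30405 to 43339 CPM (counts scaled to library size by TMM factors), LAG-3-low libraries 17474 to 25580 and LAG-3-high libraries 24217 to 27096. Summed over 12 neutrophil genes, the level was 5949 to 70277 CPM in WT, 22798 to 66227 for LAG-3-low and 3.54 to 9.65 for LAG-3-high libraries, with 3 to 10 of the 12 genes detected in the last group. Over 7 monocyte genes the sums were 23.2 to 2795 CPM in WT, 1699 to 4829 in the LAG-3-low and 0.20 to 6.52 in the LAG-3-high group. WT libraries also fell apart: mitochondrial genes took 2.99% and 3.60% of the counts of WT replicates 1 and 4, against 0.842% and 1.46% in replicates 2 and 3 and 0.584% to 1.25% in the other sorted libraries of this set. In bulk libraries of a sorted fraction, fewer cells of a type and less RNA per cell cannot be told apart, and the part of other cells in the results below was not tested. As a check of the labels, Lag3 was counted 1 to 14 times in the LAG-3-/- microglia and 430 to 3334 times in the LAG-3+/+ microglia of the second set. In whole cord, Lag3 counts were 100 to 142 in LAG-3-/- and 1010 to 1992 in LAG-3+/+ libraries.

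By the GRCm39 annotation, 3 of the genes lie on chromosome 2, namely Cst3 (148713635 to 148717887), Ctsa (164674778 to 164682961) and Ctsz (174267304 to 174280832). Ctsk (95406178 to 95416732) and Ctss (95433963 to 95463717) are neighbours on chromosome 3, 17.2 kb apart. Ctsc (87927092 to 87960096) and Ctsd (141929646 to 141941775) lie on chromosome 7, Ctsh (89936205 to 89958148) on chromosome 9, Ctsl (64507151 to 64518704) on chromosome 13 and Ctsb (63358384 to 63383372) on chromosome 14. All counts are of whole genes, so values below do not separate isoforms.

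Promoter sequence is shown because several of these genes moved together. RefSeq promoters of the GRCm38.p6 build, 250 bases before to 50 after a start site, were matched by symbol for 8 of the 10 genes, with 2 starts for Ctsa and so 9 promoters. The E-box core CACGTG, which reads the same on both strands, was in 3 of these 9 promoters and in 7.15% of all 32851. The octamer TCACGTGA, which contains that core, was in 2 of 9 and in 0.974% of all. The CLEAR element, a longer palindrome around that octamer, was searched only as an exact string, and was in 0 of 9 and 0.326%. Near matches were not counted, and the Ctsd and Ctsa windows below each match that string except for a base flanking the octamer. The myeloid PU.1 core GAGGAAGT, searched on both strands, was in 2 of 9 and 3.20%. Below, capitals mark the motif within the gene's own strand, with the Ctsd octamer starting 99 bases before the start site, the Ctsa octamer 13 and the Ctsl core 236 bases before it, and the Ctss PU.1 core, here as its reverse complement, 2 bases before it.
Ctsd, minus strand, chr7:142387899-142387946: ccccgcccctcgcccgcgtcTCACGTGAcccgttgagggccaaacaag
Ctsa, plus strand, chr2:164833740-164833772: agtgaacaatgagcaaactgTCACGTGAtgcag
Ctsl, minus strand, chr13:64370731-64370770: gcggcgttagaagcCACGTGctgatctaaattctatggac
Ctss, plus strand, chr3:95526764-95526791: tgaaaccgaaatgaaagttcACTTCCTC
A second octamer lay 5 bases after the same Ctsa start, a second core 245 bases before the Ctsd start, and the other PU.1 core 151 bases before the Ctsc start. These letters are descriptions of the windows and not evidence of binding.

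Together the 10 genes took a large part of the microglial transcriptome. Their share of all counts was 4.74% to 7.67% in WT, 5.64% to 7.77% for LAG-3-low and 10.8% to 11.9% for LAG-3-high microglia, so that the LAG-3-high range lay above the other two. The order within the group changed with the state of the cells. In WT microglia, the mean level per kilobase of transcript was highest for Cst3 (36808 CPM per kb), followed by Ctss (8313) and Ctsd (3578), and the Cst3 range did not overlap that of Ctss. In LAG-3-high microglia, Ctsd led (30807 CPM per kb), ahead of Ctss (10921), Cst3 (9455) and Ctsb (5860). Ctss and Cst3 overlapped there, and the other neighbours among these 4 genes did not. Ctsz, Ctsh and Ctsa followed at 1559, 1413 and 1295 CPM per kb with ranges that overlapped between neighbours, and Ctsc (765) and Ctsl (309) were lower. Ctsl, Ctsb and Ctsz have transcripts much longer than their coding sequence, and per kilobase of coding sequence Ctsb moved to second place in LAG-3-high microglia, at 27524 CPM per kb against 53274 for Ctsd.

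The first comparison asked how microglia with high surface LAG-3 differ from those with low LAG-3 in the same disease. All 9 cathepsin and cystatin genes that could be tested had higher fitted levels in LAG-3-high microglia, and Ctsa, Ctsb, Ctsd, Ctsl and Ctss passed the thresholds, 5 of 9 tested, against 0.818% of the 16508 genes tested called higher, 2.67% called lower and 3.49% called in either direction. A call needed an adjusted p under 0.1 by the quasi-likelihood test of edgeR, adjusted by Benjamini-Hochberg, and an absolute log2 fold change above 1. Ctsz and Ctsh passed the p threshold alone, which made 7 higher of 9, against 1.59% of genes tested. The median log2 fold change was 1.01 over the 9 genes and -0.02 over all genes tested. Scaling by library totals without TMM factors moved the median of all genes to -0.40, and every one of the 9 fitted changes stayed positive under it, but only Ctsl kept its call.

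**Figure D1:**
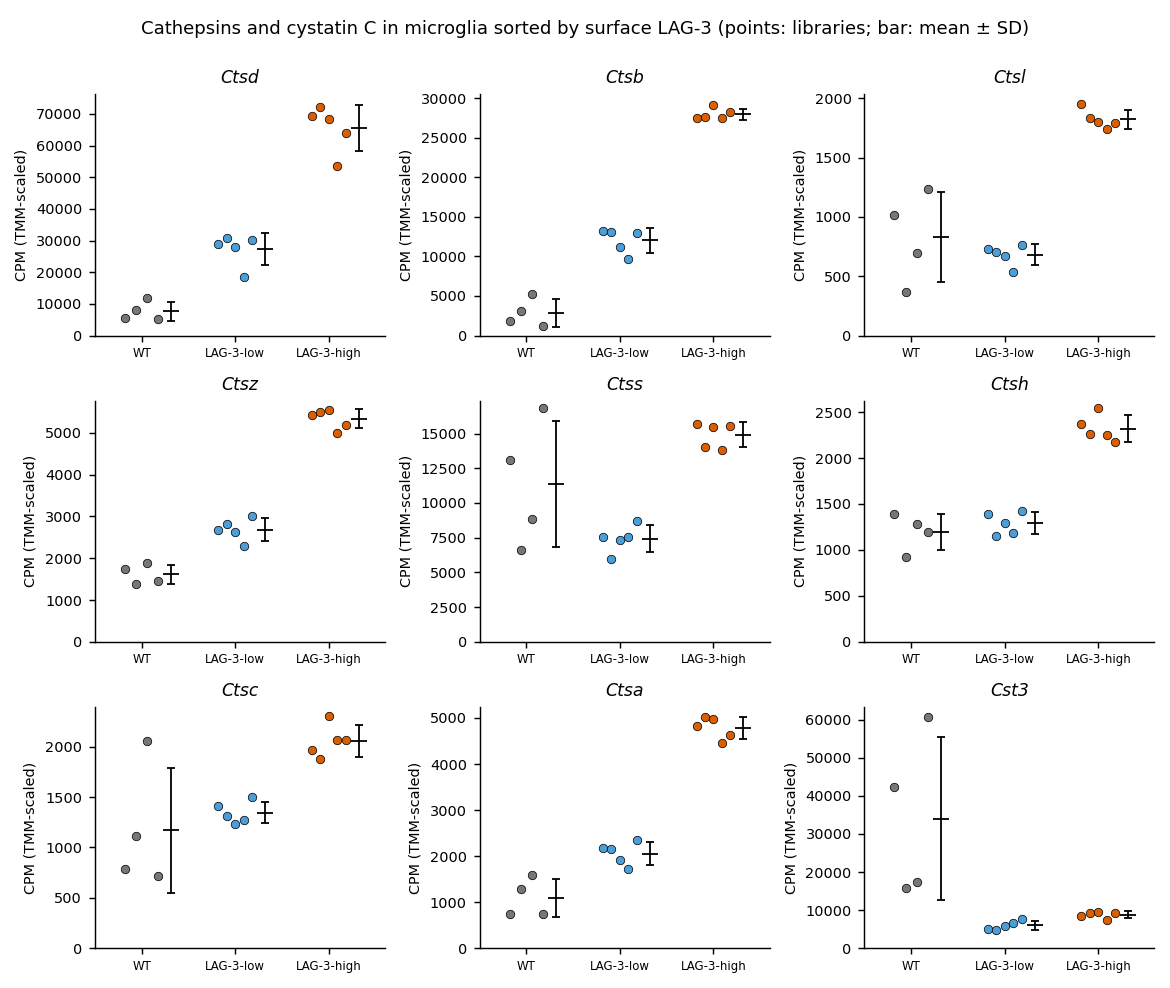
Levels of 9 genes in sorted spinal microglia, in TMM-scaled CPM on linear axes from 0. Each point is a library (WT n = 4, LAG-3-low n = 5, LAG-3-high n = 5) and each bar a mean ± SD. Ctsd and Ctsb are lowest in WT, higher for LAG-3-low and highest for LAG-3-high, Ctss and Ctsl overlap between WT and LAG-3-low, and Cst3 is highest in WT, where the libraries spread from 15926 to 60638 CPM.

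Ctsd, the aspartyl protease, had the highest level of these genes in both SOD1G93A fractions. It was at 5616, 8021, 11705 and 5098 CPM in WT replicates 1 to 4. LAG-3-low libraries held 28993, 30872, 27858, 18453 and 30237 CPM, and LAG-3-high libraries 69267, 72294, 68435, 53657 and 63984 CPM. The 3 groups did not overlap, although LAG-3-low replicate 4 lay well under the rest of its group. The LAG-3-high fraction exceeded the LAG-3-low fraction 2.40-fold in Ctsd (log2 fold change 1.26 ± 0.22 SE, adjusted p = 0.00526). Against WT, Ctsd was 3.58-fold higher for LAG-3-low (1.84 ± 0.24, adjusted p = 0.00033) and 8.60-fold higher for LAG-3-high microglia (3.10 ± 0.25, adjusted p = 2.74e-06).

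Among the cysteine endopeptidases, Ctsb followed the pattern of Ctsd. Ctsb encodes a protease that also trims peptides from their ends and is released by activated microglia. Its WT libraries were at 1868, 3078, 5215 and 1237 CPM, its LAG-3-low libraries at 13261, 13138, 11181, 9687 and 12945 CPM, and its LAG-3-high libraries at 27475, 27601, 29112, 27461 and 28310 CPM. The groups were separate. The fitted difference between the fractions was 2.32-fold (log2 fold change 1.21 ± 0.28, adjusted p = 0.0303). Against WT, Ctsb was 4.23-fold higher for LAG-3-low (2.08 ± 0.32, adjusted p = 0.000953) and 9.81-fold higher for LAG-3-high microglia (3.29 ± 0.34, adjusted p = 2.08e-05).

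Ctsl and Ctss took another course. Ctsl, a broad lysosomal endopeptidase, was at 1016, 370, 693 and 1236 CPM in WT and at 732, 700, 669, 534 and 764 CPM in LAG-3-low libraries, and these groups overlapped. In LAG-3-high libraries Ctsl reached 1954, 1834, 1796, 1741 and 1792 CPM, above every other library. It was the member with the highest fold between the fractions (2.68-fold, log2 fold change 1.42 ± 0.25, adjusted p = 0.00528), and the LAG-3-high level was 2.20-fold that of WT (adjusted p = 0.00823). The latter call was lost when transcript length and GC content were corrected for, where the log2 fold change was 0.77 (adjusted p = 0.227). Against WT, the LAG-3-low level of Ctsl did not pass (log2 fold change -0.29, 95% interval -0.83 to 0.26).

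Ctss was at 13112, 6602, 8878 and 16830 CPM in WT, 7582, 5953, 7329, 7544 and 8695 CPM in LAG-3-low, and 15672, 14022, 15484, 13845 and 15565 CPM in LAG-3-high libraries. WT overlapped both fractions, which did not overlap each other. Ctss was 2.01-fold higher in the LAG-3-high fraction (log2 fold change 1.01 ± 0.21, adjusted p = 0.0156), just over the fold threshold, while Ctsz at 0.99 lay just under it. Leaving out LAG-3-low replicate 2 or LAG-3-high replicate 1, 3 or 5 took the log2 fold change of Ctss to between 0.94 and 0.99, and with DESeq2 it was 0.95. In LAG-3-low against WT microglia, Ctss passed the p threshold but not the fold threshold, with a log2 fold change of -0.61 ± 0.22 (adjusted p = 0.0661), and in LAG-3-high against WT it did not pass (0.39, 95% interval -0.08 to 0.86).

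Ctsz, Ctsh and Ctsc encode cysteine exopeptidases. Ctsz, a carboxypeptidase, was at 1731, 1391, 1879 and 1454 CPM in WT, at 2675, 2826, 2620, 2286 and 3015 CPM in LAG-3-low, and at 5427, 5507, 5547, 5009 and 5193 CPM in LAG-3-high libraries. The 3 groups were again separate. Its difference between the fractions had the lowest adjusted p of the 9 genes (1.98-fold, log2 fold change 0.99 ± 0.13, adjusted p = 0.000516), and it was called against WT in LAG-3-high microglia (3.30-fold, adjusted p = 2.25e-06). Ctsh, an aminopeptidase, was at 928 to 1387 CPM in WT, with 1156 to 1424 for LAG-3-low and 2174 to 2545 for LAG-3-high libraries, so that only the LAG-3-high group stood apart. Its log2 fold change between the fractions was 0.85 ± 0.13 (adjusted p = 0.00297). Ctsc, the dipeptidyl peptidase that activates serine proteases of granulocytes, was at 721 to 2060 CPM in WT, with 1238 to 1498 for LAG-3-low and 1880 to 2310 for LAG-3-high libraries. The log2 fold change of Ctsc between the fractions was 0.61 ± 0.23 (adjusted p = 0.252).

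Ctsa, which protects β-galactosidase and neuraminidase in the lysosome, was at 745, 1293, 1583 and 731 CPM in WT libraries. LAG-3-low libraries held 2168, 2144, 1911, 1707 and 2344 CPM, and LAG-3-high libraries 4822, 5024, 4975, 4465 and 4628 CPM, with no overlap between groups. Ctsa was called between the fractions (2.32-fold, log2 fold change 1.22 ± 0.20, adjusted p = 0.00377) and between LAG-3-high and WT (4.39-fold, adjusted p = 2.56e-05), and its LAG-3-low difference from WT passed on p alone (0.92 ± 0.21, adjusted p = 0.0112).

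Cst3 was the 1 gene of the 9 called lower when either SOD1G93A fraction was set beside WT. Its level was 42332, 15926, 17294 and 60638 CPM in WT, 5073, 4682, 5869, 6609 and 7625 CPM in LAG-3-low, and 8329, 9094, 9571, 7427 and 9309 CPM in LAG-3-high libraries. Every WT library lay above every SOD1G93A library, and WT replicates 1 and 4, the ones with the higher mitochondrial share, held the highest values. The LAG-3-low level was 0.175-fold that of WT (log2 fold change -2.51 ± 0.33, adjusted p = 0.00036) and the LAG-3-high level 0.256-fold (-1.96 ± 0.33, adjusted p = 0.00106). Without libraries over 2% mitochondrial counts, an alternative added after the data were seen that removes WT replicates 1 and 4, these were -1.40 and -0.89, and the latter no longer passed the fold threshold. Because those libraries were picked out partly for their Cst3 levels, these values describe WT replicates 2 and 3 and are not a separate test. Between the fractions, the Cst3 difference was 0.55 ± 0.31 (adjusted p = 0.552), with a 95% interval from -0.11 to 1.20. In a fit without the WT libraries, the adjusted p of Cst3 was 0.0125 at a log2 fold change of 0.48, and that of Ctsc was 0.000449 at 0.54, both under the fold threshold.

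Against WT, then, LAG-3-low microglia had 3 of the 9 genes called, with Ctsb and Ctsd higher and Cst3 lower, against 21.9% of all genes tested, 10.9% higher and 11% lower. At an adjusted p under 0.1 alone there were 6 of 9, against 24.9%. LAG-3-high microglia had 6 of 9 called against WT, with Ctsa, Ctsb, Ctsd, Ctsl and Ctsz higher and Cst3 lower, against 27% of all genes, 12.1% higher and 14.9% lower. On adjusted p alone there were 8 of 9, against 30.3%. These comparisons share the WT libraries. Ctsk, the collagen-degrading cathepsin of osteoclasts, did not pass the filter on low counts in sorted fractions. It was at 0 counts in 17 of the 26 microglial libraries of both sets and over 50 counts in 2, namely 40.5 CPM in WT replicate 1 and 70.9 CPM in replicate 2 of the P140 LAG-3+/+ microglia, and the highest count among the rest was 36. In the second set Ctsk passed the filter, was called in 0 comparisons and had its counts almost wholly in that P140 library, so no fold is given for it in microglia.

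**Figure D2:**
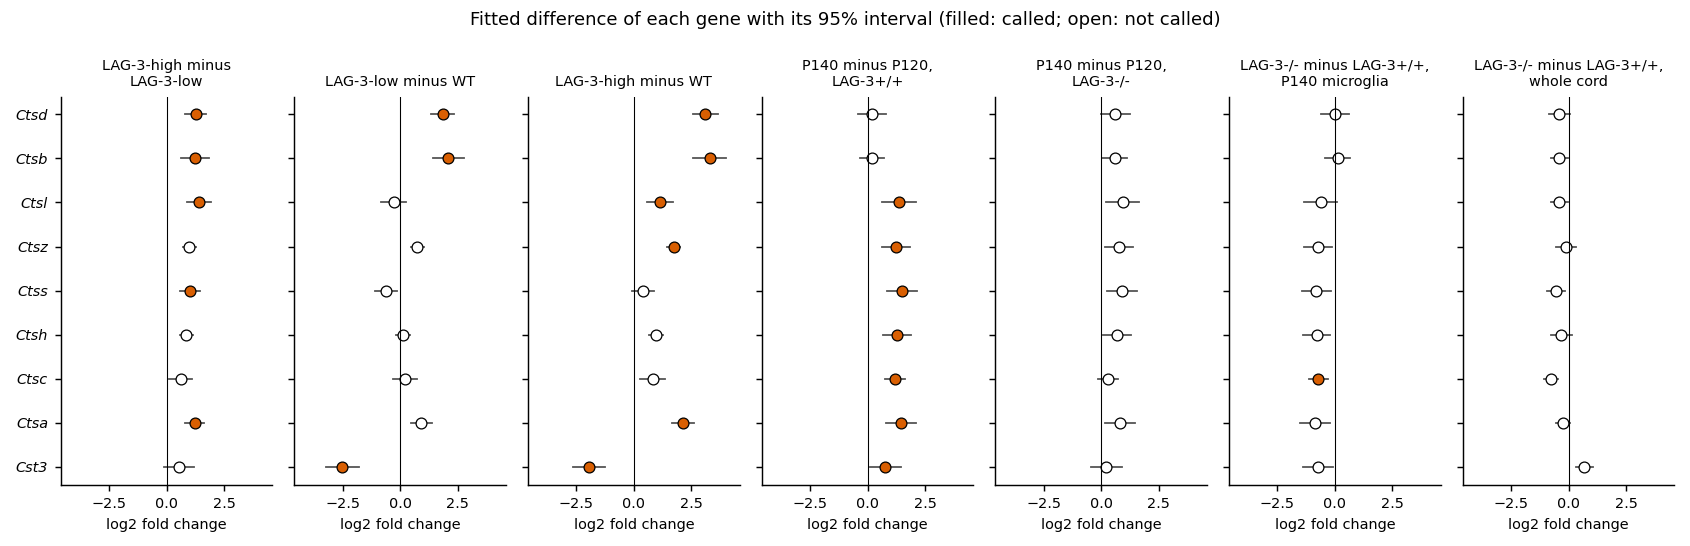
Fitted log2 fold changes (x axis) of 9 genes (y axis) in 7 comparisons, with 95% intervals as lines; filled points were called and open points were not. Ctsd and Ctsb have the highest rises of both SOD1G93A fractions over WT, while in the comparison of P140 with P120 in LAG-3+/+ microglia they are the genes near 0 (0.20 and 0.19). The comparisons with WT share libraries, as do those among the 4 groups by age and genotype.

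Transcripts of proteases can be set against those of Cst3 within a library, where scaling by library size cancels but length and GC effects that differ between libraries do not. The ratio is not a balance of proteins. It leaves out other inhibitor genes, such as Cst7 below, which was higher in LAG-3-high microglia. Counts of the 7 cysteine cathepsins per count of Cst3, not adjusted for length, had a median of 0.659 in WT (range 0.374 to 1.16), 4.15 for LAG-3-low (3.41 to 5.36) and 5.93 for LAG-3-high microglia (5.84 to 7.05). No library of one group fell in the range of another. Counts of Ctsd per count of Cst3 were 0.0841 to 0.677 in WT, with 2.79 to 6.59 for LAG-3-low and 6.87 to 8.32 for LAG-3-high libraries. These ratios are built from the values above and carry no test of their own.

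Of 20 other cathepsins, inhibitors and partner enzymes, listed with results of these data known, 14 could be tested in the sorted set. In LAG-3-high against LAG-3-low microglia, 4 were called higher and 1 lower, against 0.818% and 2.67% of all genes tested. Cst7, which encodes cystatin F, an inhibitor that acts inside endosomes and lysosomes, was at 167 to 384 CPM in LAG-3-low and 1157 to 1733 CPM in LAG-3-high libraries (log2 fold change 2.22, adjusted p = 0.0732), while WT libraries held 0 to 7.21 CPM. Glb1, the β-galactosidase that CTSA protects, was at 117 to 185 CPM in the LAG-3-low and 342 to 491 CPM in the LAG-3-high group (1.45, adjusted p = 0.078). Dpp7, a dipeptidyl peptidase, had a log2 fold change of 1.09 (adjusted p = 0.0108) and Gm2a, the GM2 ganglioside activator, of 1.01 (adjusted p = 0.0171). Napsa, an aspartyl protease gene, was listed at 24.4 to 60.4 CPM in LAG-3-low and at 0 in every LAG-3-high library. Lgmn, the legumain that processes cathepsin precursors, was called higher than WT in the LAG-3-low (log2 fold change 1.62, adjusted p = 0.0034) and the LAG-3-high fraction (1.77, adjusted p = 0.00125), and its difference between the fractions was 0.15 (adjusted p = 0.951).

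Of 16 sorting receptors and lysosomal regulators, chosen in the same way, 2 were called higher and 0 lower between the fractions, against 0.818% and 2.67% of all genes. Grn, the progranulin gene, was at 2038 to 2545 CPM in LAG-3-low and 4450 to 4914 CPM in LAG-3-high libraries (log2 fold change 1.06, adjusted p = 0.00198). Lamp1, a lysosomal membrane protein gene, spread from 303 to 1854 CPM in LAG-3-low and from 1754 to 3944 CPM in LAG-3-high libraries (1.49, adjusted p = 0.0639). Against WT, 10 of the 16 were called higher in LAG-3-high microglia and 1 lower, against 12.1% and 14.9% of all genes tested. Those higher included Psap (2.92, adjusted p = 1.98e-05), the saposin precursor, and Tfeb (1.44, adjusted p = 0.0255), and the lower one was Sort1 (-1.72, adjusted p = 0.00586).

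The second set asked how age and Lag3 deletion bear on microglia of SOD1G93A mice. In LAG-3+/+ microglia, 7 of the 10 genes were called higher at P140 than at P120 and 0 lower, against 27.4% of the 18669 genes tested, 11.9% higher and 15.5% lower, where a call needed an adjusted p under 0.1 with no fold threshold. The 7 were Ctsa, Ctsc, Ctsh, Ctsl, Ctss, Ctsz and Cst3. Ctsb and Ctsd, which had the highest rises of both LAG-3 fractions over WT among these genes, had log2 fold changes of 0.19 (95% interval -0.35 to 0.73) and 0.20 (-0.42 to 0.82), and both turned negative without TMM factors. These factors were 0.734 to 0.855 in P140 and 1.06 to 1.16 in P120 LAG-3+/+ libraries, which raises P140 levels against P120. The 7 called genes stayed positive without them, but how many kept their call is not given here. With TMM factors, the median over all genes tested was -0.22. Correcting for transcript length and GC, that median became 0.28, and Ctsb was then at 1.42 (adjusted p = 0.019).

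**Figure D3:**
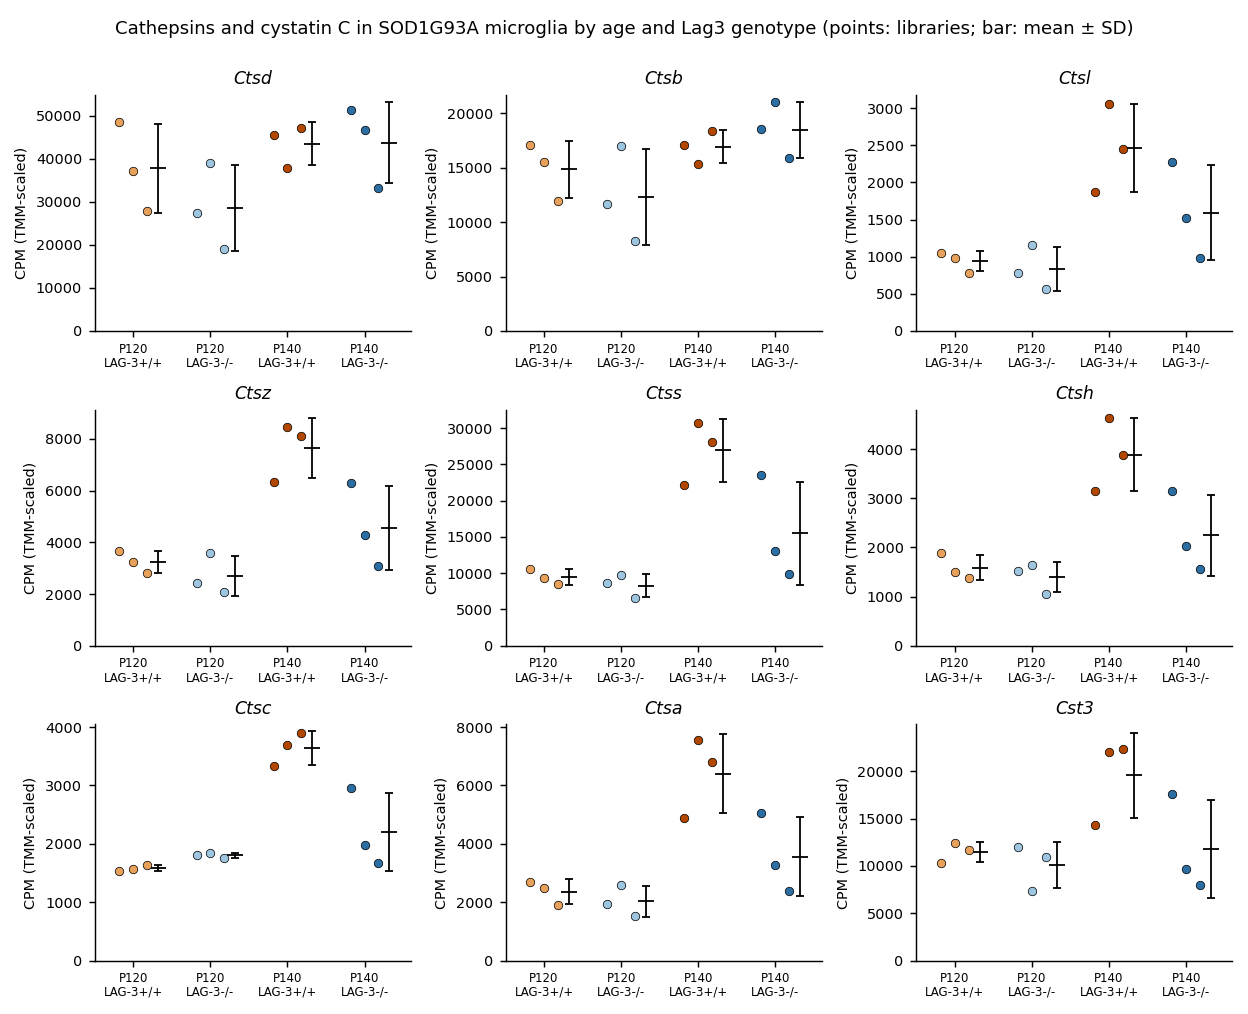
Levels of 9 genes in SOD1G93A microglia by age and Lag3 genotype, in TMM-scaled CPM on linear axes from 0. Points are libraries, 3 in each group, and bars are means ± SD. In most panels the P140 LAG-3+/+ libraries are highest and 1 of the 3 P140 LAG-3-/- libraries, replicate 1, lies beside them, while Ctsd and Ctsb overlap across all 4 groups.

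Ctss showed the highest fitted change with age. It was at 10583, 9392 and 8453 CPM in P120 LAG-3+/+ libraries and at 22141, 30635 and 28086 CPM in P140 LAG-3+/+ libraries, with no overlap (2.84-fold, log2 fold change 1.51 ± 0.29, adjusted p = 0.00821). In LAG-3-/- microglia it was at 8627, 9752 and 6528 CPM at P120 and at 23484, 13079 and 9916 CPM at P140. Replicate 1 of the P140 LAG-3-/- group was thus within the LAG-3+/+ range and the other two were not.

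Ctsc had the tightest values at P120. Its level was 1543, 1568 and 1639 CPM in LAG-3+/+ and 1815, 1837 and 1760 CPM in LAG-3-/- libraries at P120, then 3332, 3702 and 3894 CPM and 2962, 1989 and 1678 CPM at P140. At P140 the LAG-3-/- group lay wholly under the LAG-3+/+ group. Ctsc was 2.30-fold higher at P140 than at P120 in LAG-3+/+ microglia (log2 fold change 1.20 ± 0.19, adjusted p = 0.00561). It was the 1 of 10 genes called between genotypes at P140, lower in LAG-3-/- microglia (-0.72 ± 0.19, adjusted p = 0.0608), against 10.2% of all genes called, 7.22% higher and 3% lower.

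The remaining called genes changed by similar amounts with age. Ctsl rose from 784 to 1054 CPM at P120 to 1867 to 3053 CPM at P140 in LAG-3+/+ microglia (2.61-fold, adjusted p = 0.0172). Ctsa went from 1896 to 2696 CPM up to 4890 to 7549 CPM (2.71-fold, adjusted p = 0.0102). Ctsh was 2.44-fold higher (adjusted p = 0.011) and Ctsz 2.35-fold higher (adjusted p = 0.013), each with its P140 libraries above all P120 libraries of that genotype. Cst3 was at 10306, 12431 and 11653 CPM at P120 and at 14372, 22053 and 22298 CPM at P140 (1.71-fold, log2 fold change 0.77 ± 0.30, adjusted p = 0.0972), a call that was lost when any one of 5 of the 6 libraries was left out, with adjusted p from 0.175 to 0.24.

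Ctsd illustrates the other pattern. Its P120 LAG-3+/+ libraries were at 48454, 37166 and 27847 CPM and its P140 LAG-3+/+ libraries at 45577, 37776 and 47176 CPM. LAG-3-/- libraries were at 27410, 38949 and 19082 CPM at P120 and at 51337, 46631 and 33155 CPM at P140. Each of the 4 groups overlapped every other. Ctsb likewise spread over 11964 to 17060 and 15308 to 18350 CPM in LAG-3+/+ microglia and over 8287 to 17002 and 15840 to 20992 CPM in LAG-3-/- microglia at P120 and P140. As a result, counts of Ctsb per count of Ctss were 1.42 to 1.65 in P120 LAG-3+/+ libraries and 0.50 to 0.772 in P140 LAG-3+/+ libraries. In P140 LAG-3-/- libraries this ratio was 0.787 in replicate 1, 1.60 in replicate 2 and 1.60 in replicate 3. The ratio is not adjusted for transcript length, 4777 bases for Ctsb and 1366 for Ctss, and length effects that differ between libraries do not cancel in it. With the length and GC correction, Ctsb was called higher with age in LAG-3+/+ microglia, as given above.

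**Figure D4:**
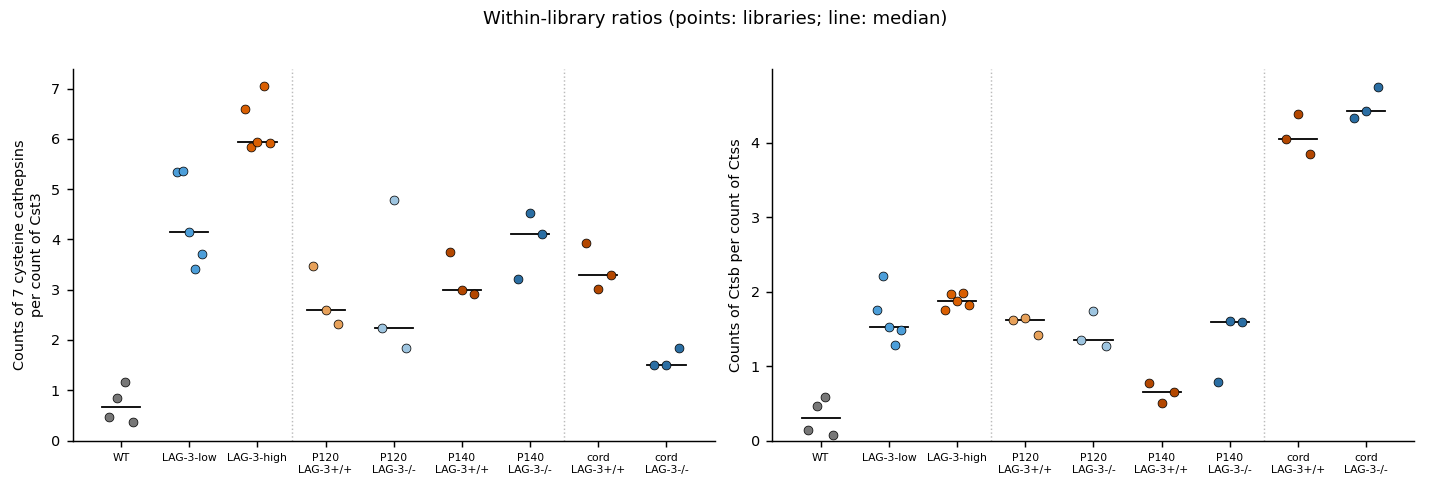
Within-library ratios for all 9 groups, with points for libraries and lines for medians; dotted lines part the 3 sets, whose counts come from separate tables. Left, counts of 7 cysteine cathepsins per count of Cst3, lowest in WT (0.374 to 1.16). Right, counts of Ctsb per count of Ctss, where P140 LAG-3+/+ libraries (0.50 to 0.772) lie under P120 LAG-3+/+ libraries (1.42 to 1.65). Neither ratio is adjusted for transcript length or GC.

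In LAG-3-/- microglia, 0 of the 10 genes passed between P140 and P120 with edgeR, against 0% of all genes called. At an unadjusted p under 0.05 there were 6 of the 10 and 1658 of all genes, and DESeq2 called 0 of the 10 and 449 of all genes. Log2 fold changes of the 9 genes other than Ctsk ran from 0.23 for Cst3 to 0.93 for Ctsl, so the intervals reach changes as high as 1.66. At P120, 0 of the 10 genes passed between genotypes with edgeR, against 0.0107% of all genes. An unadjusted p under 0.05 was met by 0 of the 10 and 551 of all genes, and DESeq2 called 0 of the 10 and 134 of all genes. The values lay between -0.41 for Ctsd (95% interval -1.03 to 0.21) and 0.19 for Ctsc (-0.23 to 0.61).

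At P140, 6 further genes had fitted levels lower in LAG-3-/- microglia without passing, from -0.62 for Ctsl (adjusted p = 0.27) to -0.85 for Ctsa (adjusted p = 0.119). Ctsb and Ctsd were at 0.12 and 0.01. The count changed with every library left out. Without replicate 1 of the LAG-3-/- group 7 of the 10 genes were called lower, and without replicate 2 or 3 of that group 0 were. Without replicate 1, 2 or 3 of the LAG-3+/+ group the counts were 4, 0 and 0. These are counts over all 10 genes, Ctsk included. Ctsk had its counts in this set almost wholly in replicate 2 of the P140 LAG-3+/+ group. For fits with a library left out, the number of all genes called is not given here. DESeq2 called 6 of 10, and 4281 of the 18669 genes tested. A direct test of whether the effect of deletion differed between P120 and P140 passed for 0 of the 10 genes with edgeR, against 0.171% of all genes. At an unadjusted p under 0.05 there were 2 of the 10 and 2541 of the 18669 genes tested. DESeq2 called 1 of the 10, Ctsc, and 1301 of all genes. In edgeR, Ctsc was at -0.91 with an adjusted p of 0.22. Without replicate 1 of the P140 LAG-3-/- group, edgeR called 2 of the 10, Ctsc (-1.17) and Ctss (-1.03).

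Signs of other cells were uneven in this set as well. Neutrophil genes summed to 1741 to 2574 CPM in P120 LAG-3+/+ libraries and to 2.80 to 6.57 in P120 LAG-3-/- libraries. At P140 they were at 3479, 667 and 3.92 CPM in LAG-3+/+ and at 4.02, 846 and 4612 CPM in LAG-3-/- libraries, so that replicate 1 of the LAG-3-/- group, with high cathepsin levels, had the lowest sum of its group. LAG-3+/+ replicate 1, with the highest sum of its group, held 22141 CPM of Ctss. Genes with a count numbered 20260, 23896 and 23459 in P140 LAG-3-/- replicates 1 to 3. In P140 LAG-3+/+ libraries there were 18896 to 20489 and in P120 libraries 23607 to 24942. TMM factors were 0.848, 0.980 and 1.12 in those P140 LAG-3-/- replicates, 0.734 to 0.855 in P140 LAG-3+/+ and 1.06 to 1.26 in P120 libraries. The part of these library differences was not tested. Microglial marker genes summed to 28242 to 31769 CPM in P120 LAG-3+/+ and 23388 to 33342 CPM in P120 LAG-3-/- libraries. At P140 they were higher in every LAG-3+/+ library, as were the 7 genes called there, and summed to 38379 to 46580 CPM in P140 LAG-3+/+ libraries and to 42303, 27971 and 26610 CPM in P140 LAG-3-/- libraries. Border macrophage genes, 7 in all with 1 to 4 detected in a library, summed to 0.511 to 61.4 CPM at P120, to 111 to 142 CPM in P140 LAG-3+/+ libraries and to 31.3 to 49.97 CPM in P140 LAG-3-/- libraries. Their part in the differences was not tested. Only 1 library in each P140 group had under 100 CPM of neutrophil genes, so no spread within a genotype could be had among such libraries.

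Among the 20 other cathepsins and partners, 16 could be tested in this set and 6 were called higher at P140 in LAG-3+/+ microglia, with 0 lower, against 11.9% and 15.5% of all genes. Cst7 was at 207 to 496 CPM at P120 and 1019 to 1501 CPM at P140 (log2 fold change 1.87, adjusted p = 0.0846), and Cstb, an intracellular cystatin, had a log2 fold change of 1.32 (adjusted p = 0.0234). The 16 regulators were split, with 6 called higher and 7 lower, against the same 11.9% and 15.5%. Those higher included Grn (1.03, adjusted p = 0.0324) and Gnptg, a subunit of the enzyme that makes the mannose 6-phosphate tag (1.20, adjusted p = 0.0233). Those lower included the transcription factor genes Mitf (-1.18, adjusted p = 0.0375) and Tfe3 (-1.33, adjusted p = 0.0415), the receptor gene Sort1 (-1.70, adjusted p = 0.0167) and Lamp1 (-2.40, adjusted p = 0.0354). Lamp1 was at 1836 to 2433 CPM in P120 LAG-3+/+ libraries, at 740, 325 and 147 CPM in P140 LAG-3+/+ libraries, and at 242, 2027 and 1867 CPM in P140 LAG-3-/- libraries. Between genotypes at P140, 1 of the 16 was called, with Tfe3 higher in LAG-3-/- microglia (1.27, adjusted p = 0.0952).

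The third set asked what Lag3 deletion does in the whole spinal cord at P140, where microglia are a minority of cells and the 10 genes took 0.486% to 0.881% of counts. None of the 10 genes was called with edgeR, 0 of 10 against 7.52% of the 17702 genes tested, 4.37% higher and 3.15% lower, since no change exceeded a log2 fold change of 1. DESeq2 also called 0 of the 10, and 1271 of all genes. At an unadjusted p under 0.05 there were 6 of the 10 and 8441 of the 17702. At an adjusted p under 0.1 alone there were 6 of 10, with 4 lower and 2 higher, against 47.1% of all genes, 23.9% lower and 23.1% higher.

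**Figure D5:**
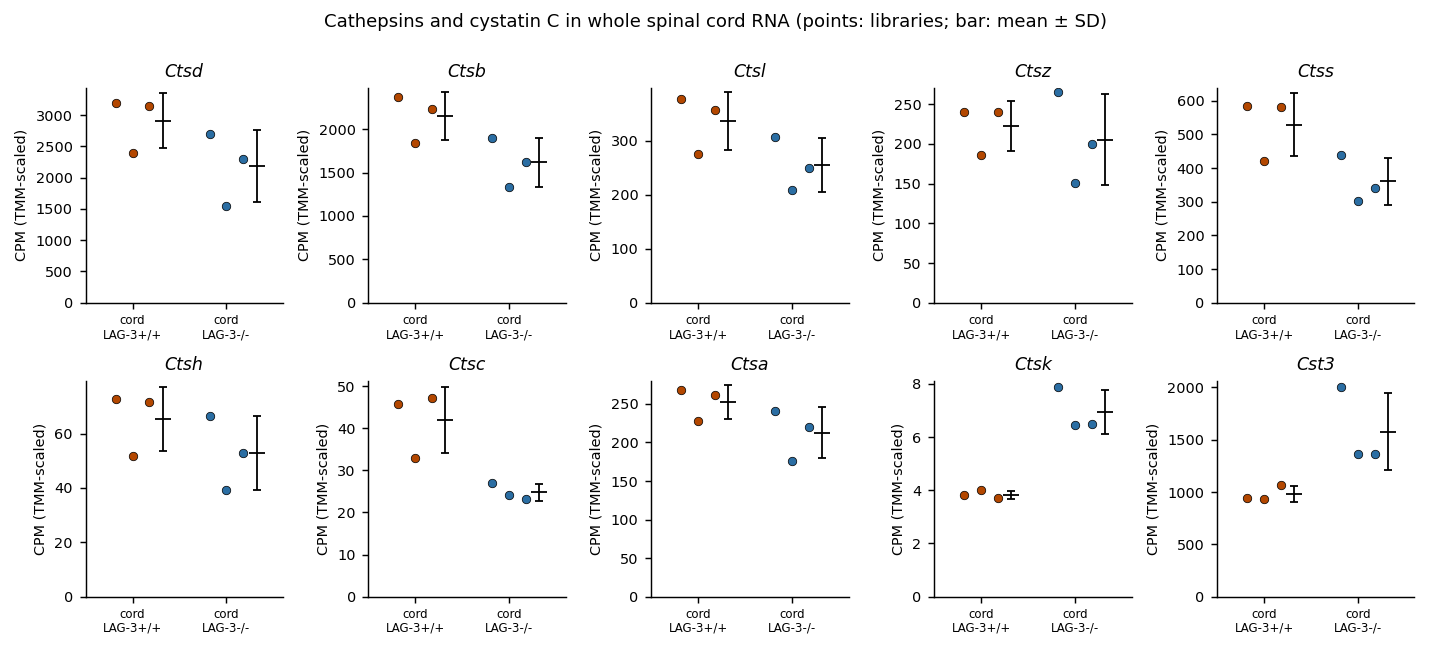
Levels of the 10 genes in whole spinal cord at P140, in TMM-scaled CPM on linear axes from 0. Points are libraries, 3 in each genotype, and bars are means ± SD. Ctsk and Cst3 are higher in every LAG-3-/- library and Ctsc lower, while the other panels overlap.

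The 4 genes that were lower were Ctsc, Ctss, Ctsb and Ctsl. Ctsc was at 45.8, 33.0 and 47.2 CPM in LAG-3+/+ and 27.0, 24.1 and 23.2 CPM in LAG-3-/- cord, without overlap (log2 fold change -0.76 ± 0.14, adjusted p = 0.00192). Ctss was at 586, 421 and 581 CPM against 438, 301 and 342 CPM, which overlapped (-0.55 ± 0.17, adjusted p = 0.026). Ctsb was at -0.41 ± 0.17 (adjusted p = 0.0762) and Ctsl at -0.40 ± 0.16 (adjusted p = 0.0766). Of these 4, Ctsc stayed under an adjusted p of 0.1 whichever library was left out. Without replicate 2 of the LAG-3-/- group, the adjusted p was 0.102 for Ctss, 0.263 for Ctsb and 0.260 for Ctsl, and without replicate 3 of the LAG-3+/+ group it was 0.107, 0.208 and 0.214. Ctsb and Ctsl also lay above 0.1 without replicate 1 of the LAG-3+/+ or replicate 3 of the LAG-3-/- group, at 0.120 to 0.211. Ctsd, Ctsa, Ctsh and Ctsz did not pass, with log2 fold changes from -0.41 to -0.12.

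The 2 genes that were higher were Cst3 and Ctsk. Cst3, which astrocytes and choroid plexus also express, was at 939, 933 and 1070 CPM in LAG-3+/+ and 2004, 1364 and 1365 CPM in LAG-3-/- cord (1.61-fold, log2 fold change 0.69 ± 0.17, adjusted p = 0.00889). Correcting for transcript length and GC, the Cst3 change in cord was 0.026, and with coding length in place of transcript length 0.08 (adjusted p = 0.757). Ctsk was at 3.81, 3.995 and 3.70 CPM against 7.88, 6.44 and 6.49 CPM, on 93 to 164 counts per library (1.81-fold, 0.85 ± 0.17, adjusted p = 0.00301). In counts, the 7 cysteine cathepsins stood at 3.02 to 3.94 per count of Cst3 in LAG-3+/+ and at 1.502 to 1.83 in LAG-3-/- cord.

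Markers of cell types moved with these differences in whole cord. The 9 microglial genes summed to 1223 to 1529 CPM in LAG-3+/+ and 898 to 1214 CPM in LAG-3-/- cord. They did not all move together, with a median log2 fold change of -0.17 and 2 of the 9 positive. At an adjusted p under 0.1, 3 were lower and 1 higher, against 23.9% and 23.1% of all genes. The sum thus does not stand for each marker. Oligodendrocyte genes summed to 15176 to 16486 and 21499 to 29682 CPM. Astrocyte genes summed to 9954 to 11693 and 6073 to 10341 CPM, monocyte genes to 48.2 to 56.5 and 27.2 to 32.5 CPM, without overlap, and mitochondrial genes took 4.603% to 6.78% and 7.99% to 14.8% of counts. Per 1000 CPM of microglial markers, a ratio chosen after these sums were seen, Ctsb was at 1461 to 1589 CPM in LAG-3+/+ and 1483 to 1562 CPM in LAG-3-/- cord, and Ctsl at 226 to 252 and 232 to 253 CPM, so both overlapped. Ctss, at 345 to 392 and 325 to 361 CPM per 1000, overlapped too. Ctsc was at 27.0 to 30.9 and 22.05 to 26.8 CPM per 1000 and did not overlap. Ctsk, at 2.42 to 3.27 and 6.16 to 7.18 CPM per 1000, was higher in LAG-3-/- cord without overlap. Cst3 was at 629 to 763 and 1296 to 1650 CPM per 1000. These markers also differed with the state of sorted microglia, so the ratios are not values per microglial cell. Of the other cathepsins and partners, 14 could be tested in cord, where 2 were called lower and 1 higher, against 3.15% and 4.37% of all genes. Ctse (-1.38, adjusted p = 0.002) and Cst7 (-1.14, adjusted p = 0.00831) were called lower and Cst6 higher (1.05, adjusted p = 0.045).

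Genes with the profile most like that of Ctsd and Cst3 were looked up by Pearson's r of log2 CPM across libraries, as a description over libraries that share groups and depth. For Ctsd in the 14 sorted libraries they were Atp6v0c (0.993), a subunit of the lysosomal proton pump, Gusb (0.991), the β-glucuronidase gene, and Pld3 (0.988), a lysosomal exonuclease gene. In the 12 libraries by age and genotype they were Cd84 (0.922), Ch25h (0.921) and Ifi27l2a (0.919). For Cst3 they were Ntpcr (0.984), Gm4034 (0.983) and Gm14667 (0.982) in the sorted libraries and Twf2 (0.983), Susd3 (0.969) and Rnase4 (0.966) by age and genotype. The 3 nearest genes of Ctsd were different ones in each set, and so were those of Cst3.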

How the data were processed

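Gene-level estimated counts were deposited in 3 tables, 1 for each set of libraries. Per the labels and methods of the study, the authors trimmed reads with Trim Galore 0.6.7, quantified them with Salmon 1.9.0 against GRCm39 and imported the estimated counts into R 4.2.1 with tximport; the annotation release is not given in the sources used here. Sorted cells were amplified with a SMART-seq kit and cord RNA with a directional kit. Counts were rounded, and each table was fitted whole in edgeR 4.0.16 (R 4.3.3) after filtering by filterByExpr at a count of 10 and a total of 15, with TMM factors and robust quasi-likelihood tests, where the study used DESeq2. All groups of a table share 1 estimate of spread. Calls needed an adjusted p under 0.1 and, in sorted fractions and cord, an absolute log2 fold change above 1. CPM are scaled by TMM factors, and intervals are 95%. Symbols, positions and lengths came from GENCODE vM39. 1 listed microglial marker was not analysed here. Members and gene lists were chosen with earlier results of these data known. Named genes were all members, list genes called (at most 8 per comparison by adjusted p) and the 3 genes best correlated with Ctsd and Cst3. Nothing states which mouse gave each library, so p-values measure the spread between libraries. Alternatives were DESeq2 1.42.0, RLE factors, no TMM factors, no filter, a replicate block, sex, a length and GC correction, an adjusted p under 0.05, fits of 2 groups and leaving out each library. Scripts were tested on simulated data. Leaving out libraries by mitochondrial or neutrophil counts and a coding length correction were added after the data were seen.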

Additional observations from a re-analysis of the deposited data

Results flagged for a closer look

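In 4 of 30 sets of values of a gene in a group of 4 or 5 sorted libraries, 1 library stood apart by Dixon's criterion, which chance meets in about 1 of 20. Ctsd in LAG-3-low replicate 4 was at 18500 CPM, against 27900 in the next library. Ctsk was at 40.5 CPM in WT replicate 1, at 0.736 in LAG-3-low replicate 3 and at 0.354 in LAG-3-high replicate 4, against 0 in every other library of each group. A lone library with counts among zeros meets the criterion at any level. The rate of 1 in 20 thus does not apply to these Ctsk groups.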

How the results depend on the processing

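Of 692 values under other settings, 637 kept their direction and their side of the threshold, as did 595 of 636 with 1 library left out; the causes of the other changes were not tested. Between the LAG-3 fractions, 1 gene was called without TMM factors. Between genotypes at P140, where 1 gene was called, 0 were at an adjusted p under 0.05, 0 with the replicate block and 0 with the 2 groups alone, while DESeq2 called 6, RLE factors 3 and the length and GC correction 3. Leaving out 1 library gave 0 to 7, with 7 without LAG-3-/- replicate 1. With low-neutrophil libraries 1 library was left for each genotype at P140, other groups supplied the spread, and the 0 called there says nothing about stability. In the test of genotype by age, DESeq2 called 1 (Ctsc, -1.02, adjusted p = 0.0230), and 1301 of all genes. Leaving out 1 library gave 0 to 2 in that test, with 2 without P140 LAG-3-/- replicate 1 (Ctsc and Ctss). In LAG-3-/- microglia between ages, 1 was called with low-neutrophil libraries (Ctss, adjusted p = 0.0893), where the lone P140 library was assumed to vary like the others. The block moved no other count of calls by over 1.5 times. Over all same-numbered pairs, the mean correlation of deviations was 0.014, -0.0032 and 0.00099 in the 3 sets. In the sorted set that mean includes pairs with WT, which come from other mice. Between the SOD1G93A fractions alone, same-numbered pairs gave 0.019, 0.067, -0.0013, 0.067 and 0.0094 in replicate order. Both values of 0.067 lay above the highest of the different-numbered pairs in that set (0.043). Whether the fractions were paired by mouse cannot be told from these values.

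Log2 fold changes turned as follows. In LAG-3-low against WT, without libraries over 2% mitochondrial counts, Ctsc was at -0.14, Ctsl at 0.45 and Ctss at 0.027, and with the length and GC correction Ctsz was at -0.35. Between genotypes at P140, Ctsb was at -0.71 with that correction and -0.0022 with low-neutrophil libraries, and Ctsd was at -0.075 with DESeq2 and with RLE factors, -0.042 with the block and -0.23 with the correction. Without TMM factors, P140 against P120 gave Ctsb -0.29 and Ctsd -0.27 in LAG-3+/+ microglia, and Ctsc -0.016 and Cst3 -0.11 in LAG-3-/- microglia. With the length and GC correction, Ctsb was at -0.39 for genotype by age and Ctsl at 0.12 in cord. Leaving out 1 library, the ranges that crossed 0 were -0.48 to 0.038 for Ctsl and -0.33 to 0.0010 for Cst3 between genotypes at P120, -0.018 to 0.23 for Ctsb and -0.12 to 0.17 for Ctsd at P140, -0.18 to 0.44 for Cst3 with age in LAG-3-/- microglia and -0.34 to 0.064 for Ctsz in cord. A coding length correction was void for the microglial sets, where 72.6% and 66.6% of tested genes had a coding length against the 80% needed.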
